A study of Mus musculus with 39 samples.

Results

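The interval between pregnancy day 6.5 and pregnancy day 9.5 was described here in mouse pancreatic islets, from 8 of the 39 arrays of the series, 4 of each day, chosen by the day in their titles. Islets of wild type C57bl6/J mice at pregnancy day 9.5 were set against islets of wild type C57bl6/J mice at day 6.5. Comparisons outside the interval used wild type C57bl6/J islets of pregnancy day 3.5 (3 arrays), of day 12.5 and of non-pregnant females (4 arrays each). They also used non-pregnant islets of the transgenic line Pdx1-creLate, at backcross generation N8, and of their wild type littermates (4 arrays each). In Pdx1-creLate mice a Pdx1 promoter drives Cre in the pancreatic lineage. From knowledge of the study rather than from the labels, the transgene also holds a minigene of human growth hormone, a hormone that can act on the prolactin receptor. Ages, and whether islets of several animals were pooled, are not given in the sources used here. RNA was hybridised to Affymetrix Mouse Gene 1.0 ST arrays, and the deposited values are log2 signals after robust multi-array averaging (RMA), with 1 decimal. After keeping 1 probe set per gene symbol, 19938 genes were tested.

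In pregnancy, prolactin and the placental lactogens bind the prolactin receptor on beta cells, and the kinase JAK2 then activates the transcription factor STAT5. STAT5 raises its own feedback inhibitors (Cish, Socs2) and a set of target genes, among them Tph1, the enzyme that starts serotonin synthesis. In the mouse, beta cells divide in mid-pregnancy and make more insulin, which passes through the endoplasmic reticulum (ER) and is stored in granules.

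A gene was called where the limma test gave an adjusted p under 0.05 (Benjamini-Hochberg, over all 19938 genes). Of these genes, 2086 were called higher on day 9.5 than on day 6.5 (10.5%) and 1382 lower (6.93%). With arrays centred on their medians the split was 2687 higher and 511 lower. The differences were mostly small. Only 45 called genes changed at least 2-fold (0.226%), and the median difference of all genes was −0.03 (log2). In 1935 called genes the arrays of the 2 days did not overlap (9.71%). Genes called in the same direction in all of 18 further fits of the same genes, 8 of which each left out 1 array, came to 627, of which 554 were higher and 73 lower.

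A pair of array measures moved with the day. The mean log2 value of 25 acinar genes (digestive enzymes and other genes of the exocrine pancreas) was 6.0, 8.80, 7.80 and 7.68 in day 9.5 replicates 1 to 4, against 8.94, 8.93, 9.26 and 8.94 in day 6.5 replicates 1 to 4. All 4 day 9.5 arrays lay below all day 6.5 arrays, and day 9.5 replicate 1 was the lowest of the 8. Because islets were measured whole, fewer cells of a type and less RNA per cell cannot be told apart. The SD of all log2 values of an array was 1.87 to 1.95 on day 9.5 and 1.81 to 1.88 on day 6.5, and the ranges overlapped. With genes split into 4 classes of near-equal size by mean level, 23.5% of the brightest class were called higher and 4.1% lower, against 1.38% higher and 6.62% lower in the dimmest class. Counts with the array SD as a covariate are therefore given beside those of the gene groups below, and the part of either measure in the results was not tested beyond such covariates.

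**Figure D1:**
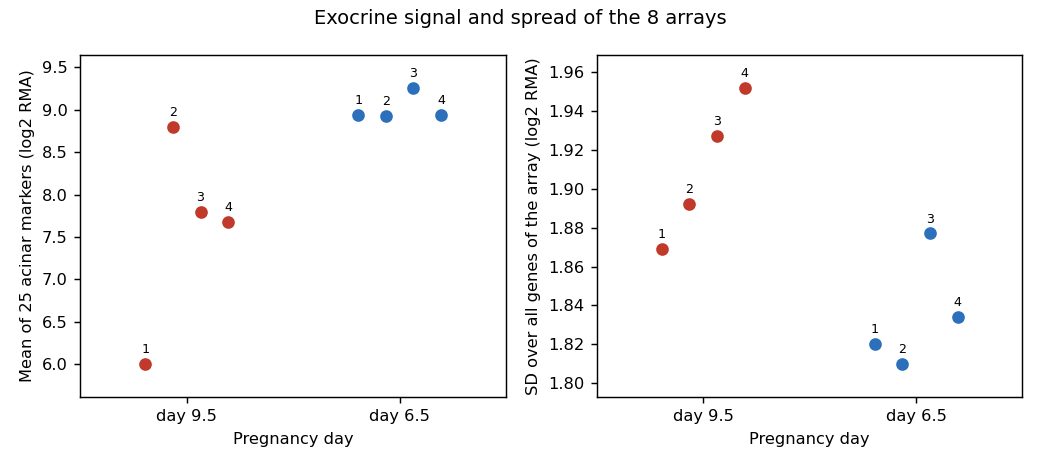
Mean log2 value of the 25 acinar genes (left) and SD of all log2 values (right) in each array of day 9.5 and of day 6.5, with replicate numbers beside the points. The acinar mean was between 6.0 and 8.80 on day 9.5 and between 8.93 and 9.26 on day 6.5, and the array SD was between 1.87 and 1.95 on day 9.5 and between 1.81 and 1.88 on day 6.5.

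**Figure D2:**
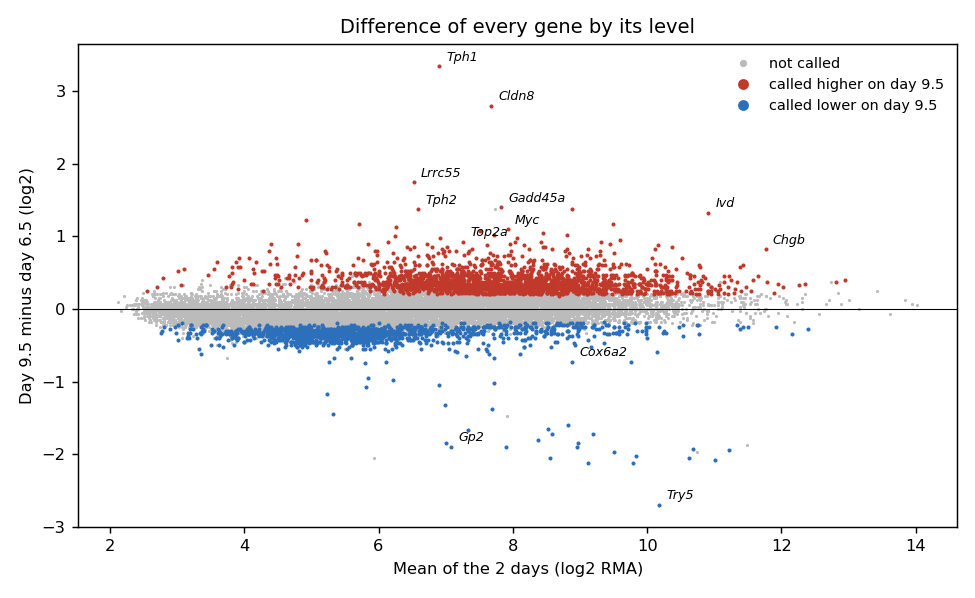
Difference of every gene between day 9.5 and day 6.5 (log2, vertical axis) against its mean log2 value over both days (horizontal axis), with called genes coloured by direction. Tph1 and Cldn8 lie farthest above 0, and genes of the exocrine pancreas such as Try5 and Gp2 lie farthest below it.

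The largest rises were in Tph1, Cldn8 and Lrrc55. Cldn8 and Lrrc55 belong to a list of lactogen target genes that was drawn up with earlier results of these data known. Tph1, the first and rate-limiting enzyme of serotonin synthesis outside the brain, had log2 values of 8.0, 8.8, 8.7 and 8.8 on day 9.5, against 5.3, 5.0, 5.1 and 5.5 on day 6.5. The 2 sets of arrays lay far apart, and the difference was 3.35 ± 0.22 (SE), a 10.2-fold rise (adjusted p = 3.36e-12). Cldn8, a claudin of tight junctions, read 8.5, 9.2, 9.0 and 9.6 on day 9.5, against 6.6, 6.0, 6.2 and 6.3 on day 6.5. It rose by 2.80 ± 0.18, or 6.96-fold (adjusted p = 2.92e-12). Lrrc55, an auxiliary subunit of the BK potassium channel, was 7.0, 6.9, 7.7 and 8.0 on day 9.5, against 5.9, 5.4, 5.4 and 5.9 on day 6.5. Its day 9.5 arrays were spread over more than 1 log2 unit but stayed above every day 6.5 array, and the rise was 1.75 ± 0.17 (adjusted p = 3.87e-08).

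The 15 largest rises among genes whose arrays did not overlap held 8 further enzymes, signalling or membrane proteins with known roles. Gadd45a, a stress- and growth-arrest-induced protein, read 8.3, 8.4, 8.7 and 8.7 on day 9.5, against 7.3, 6.9, 7.1 and 7.2 on day 6.5 (difference 1.40, adjusted p = 7.89e-11). Tph2, the tryptophan hydroxylase of neurons, was 7.2, 7.1, 7.3 and 7.5 on day 9.5, against 6.3, 5.6, 5.8 and 5.9 on day 6.5 (1.38, adjusted p = 2.77e-08). Ivd, the isovaleryl-CoA dehydrogenase of leucine breakdown, was 11.4, 11.4, 11.7 and 11.8 on day 9.5, against 10.5, 10.2, 10.2 and 10.1 on day 6.5 (1.32, adjusted p = 7.25e-11). In each of these 3 genes the arrays of the 2 days lay apart. Ehhadh, which oxidises fatty acids in peroxisomes, rose by 1.07 and Wipi1, a protein of the autophagosome membrane, by 1.05. Car15, a carbonic anhydrase, rose by 1.02, Sftpd, the collectin surfactant protein D, by 1.00, and Fgl2, a fibrinogen-like protein, by 0.97. Tmem255a (1.38), Dipk1a (1.12) and D17H6S56E-5 (1.02) were the others beside Myc. All 15 were also called higher in each of the 18 further fits.

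**Figure D3:**
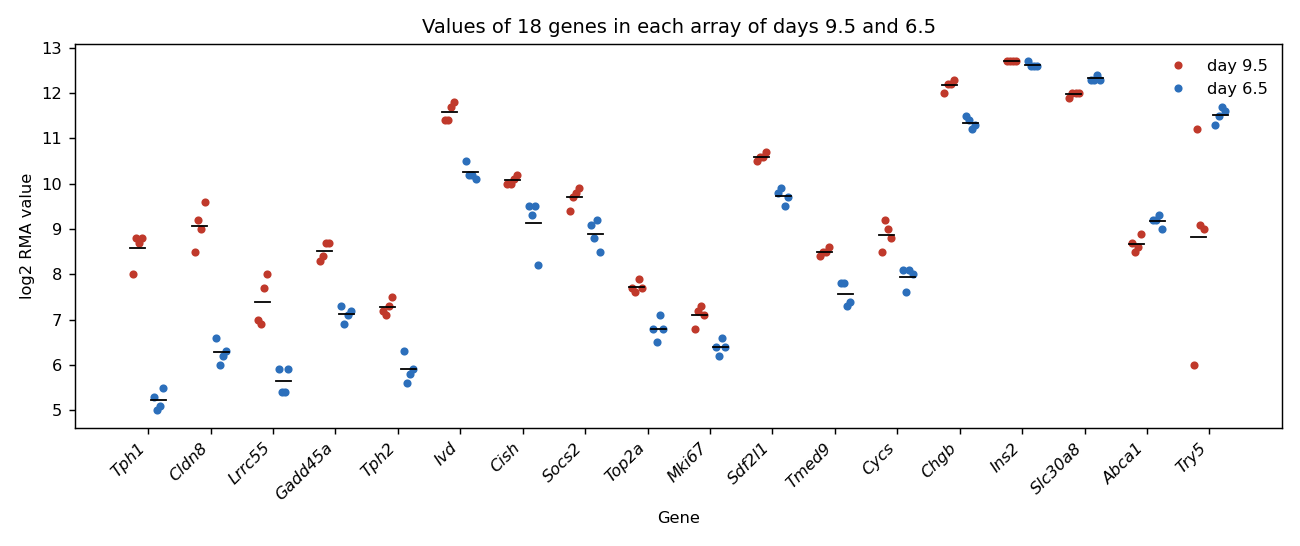
Log2 RMA values of 18 genes in the 4 arrays of day 9.5 and, to their right, the 4 arrays of day 6.5, with group means as lines. The arrays of the 2 days are separate for Tph1, Cldn8, Ivd, Top2a, Sdf2l1 and Chgb, overlap for Ins2, and in Try5 the day 9.5 arrays run from 6.0 to 11.2.

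The lactogen receptor itself (Prlr) was not analysed here. The 19 measured genes of the lactogen receptor and STAT5 pathway had a median difference of 0.10. Of these 1 rose, 2 fell and 16 were not called, against 10.5% higher and 6.93% lower among all genes. These counts depended on the scaling: 1 rose and 7 fell after quantile normalization, 2 rose and 0 fell with arrays centred on their medians, and 1 rose and 2 fell with the array SD as a covariate. Ghr, the growth hormone receptor, was 9.5, 9.4, 9.5 and 9.5 on day 9.5, against 9.8, 9.6, 10.0 and 9.7 on day 6.5 (difference −0.30, adjusted p = 0.01), a fall not called with arrays centred on their medians (adjusted p = 0.0888). Stat5a fell by 0.20 (adjusted p = 0.0459), a call that was lost with the array SD as a covariate (adjusted p = 0.537). Stat5b differed by −0.12 (adjusted p = 0.192), and Jak2 was not called either (−0.05, adjusted p = 0.718). The riser was Akt1, a kinase of the insulin and growth factor pathway, at 0.47 ± 0.06 (adjusted p = 5.16e-06).

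Downstream, 16 of 30 measured feedback inhibitors and target genes rose and 5 fell, against 10.5% and 6.93% of all genes. Their median difference was 0.29, and the list had been drawn up with earlier results of these data known. With the array SD as a covariate 13 rose and 1 fell, and 13 rose in every one of the 18 fits. Cish, a SOCS-family inhibitor of STAT5, was 10.0, 10.0, 10.1 and 10.2 on day 9.5, against 9.5, 9.3, 9.5 and 8.2 on day 6.5. Day 6.5 replicate 4 lay more than 1 log2 unit below the other day 6.5 arrays, and the difference was 0.95 ± 0.20 (adjusted p = 0.00123). Myc, the growth-promoting transcription factor, showed the same array low: 8.0, 8.4, 8.8 and 8.7 on day 9.5, against 7.8, 7.7, 7.6 and 6.4 on day 6.5 (1.10, adjusted p = 0.000867). Both were still called without that array, with differences of 0.64 for Cish and 0.78 for Myc. Socs2, the other inhibitor of growth hormone and prolactin signalling that rose, was 9.4, 9.7, 9.8 and 9.9 on day 9.5, against 9.1, 8.8, 9.2 and 8.5 on day 6.5 (0.80, adjusted p = 1.26e-05).

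Other Socs genes did not rise with Socs2 and Cish. Socs1 (−0.28, adjusted p = 0.019) and Socs5 (−0.28, adjusted p = 0.0111) fell, while Socs3 (−0.07), Socs4 (0.15), Socs6 (0.03) and Socs7 (−0.12) were not called. With arrays centred on their medians, Socs1, Socs5 and Tnfsf11 were not called. Socs1 and Tnfsf11 were not called with the array SD as a covariate either, nor was Socs1 after quantile normalization. Among secreted products, Tnfrsf11b, the decoy receptor osteoprotegerin, rose by 0.85 ± 0.16 (adjusted p = 0.000561). Its ligand gene Tnfsf11 fell by 0.35 (adjusted p = 0.025), and the receptor gene Tnfrsf11a was not called (−0.05). Matn2, a matrix protein, was 9.6, 9.9, 9.9 and 10.2 on day 9.5, against 9.0, 8.9, 9.1 and 9.0 on day 6.5 (0.90, adjusted p = 1.09e-05). Of the survival genes, Mcl1, which blocks apoptosis, rose by 0.33 and the kinase Pim1 by 0.25, and neither was called with the array SD as a covariate.

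Promoters of the strongest risers were searched for TTCNNNGAA, the palindrome that STAT5 binds, on both strands of windows of 300 bases (250 before to 50 after the start, RefSeq, GRCm38.p6). Of the 15 largest rises, 11 had a window, and 3 of these held the motif (Ivd, Wipi1 and Fgl2), as did 8.99% of the windows of all tested genes. Among all 1708 genes called higher with a window the share was 7.96%. The windows of Ivd (chr2:118861744-118862043, plus strand) and Wipi1 (chr11:109611340-109611639, minus strand) are shown because both genes rose over 2-fold, with the fixed bases of the motif in capitals.
Ivd: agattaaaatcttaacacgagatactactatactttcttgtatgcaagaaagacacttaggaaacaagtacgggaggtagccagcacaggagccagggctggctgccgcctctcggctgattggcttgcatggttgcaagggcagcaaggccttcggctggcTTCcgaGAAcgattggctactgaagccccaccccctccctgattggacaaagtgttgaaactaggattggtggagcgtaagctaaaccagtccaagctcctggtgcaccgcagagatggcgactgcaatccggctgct
Wipi1: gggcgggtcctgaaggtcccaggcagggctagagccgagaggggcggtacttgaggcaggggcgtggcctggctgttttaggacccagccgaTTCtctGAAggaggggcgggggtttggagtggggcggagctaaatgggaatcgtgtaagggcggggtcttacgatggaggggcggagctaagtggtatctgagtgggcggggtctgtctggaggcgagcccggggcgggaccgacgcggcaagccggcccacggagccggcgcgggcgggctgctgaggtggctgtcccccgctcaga
Each held the motif at 1 place, with the spacers cga in Ivd and tct in Wipi1. The windows of Tph1, Lrrc55 and Tph2, which rose by more, did not hold these letters.

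Serotonin synthesis genes rose alongside the hydroxylases. Of 15 measured genes of serotonin synthesis, storage and breakdown, 8 rose, 0 fell and 7 were not called, against 10.5% higher and 6.93% lower among all genes. In the brightest class, which held 8 of the 15, 23.5% of all genes rose. After quantile normalization 4 rose and 2 fell, and with the array SD as a covariate 4 rose and 1 fell. Pcbd1 and Qdpr, which regenerate the cofactor tetrahydrobiopterin that the hydroxylases need, rose by 0.45 (adjusted p = 9.17e-05) and 0.42 (adjusted p = 0.000114). Gch1, the first enzyme of that cofactor's synthesis, rose by 0.33 (adjusted p = 0.025), and the vesicle transporter Slc18a1 by 0.30 (adjusted p = 0.0306). Tph1, Tph2, Pcbd1 and Qdpr were the 4 called in each of the 18 fits, and 4 was also the count called higher with the array SD as a covariate, without day 6.5 replicate 4, without day 9.5 replicate 3 and without day 9.5 replicate 4. Ddc, the decarboxylase that makes serotonin (0.10), Slc18a2, the other vesicle transporter (0.10), and Maoa, which breaks serotonin down (0.23), were not called. Serotonin receptor genes did not rise: of 14 measured, 0 rose and 3 fell (Htr1d −0.35, Htr4 −0.38 and Htr5a −0.38), and 0 fell with the array SD as a covariate. All 14 were dimmer than the brightest class of genes. Htr2b, the receptor known for beta-cell division in mouse pregnancy, read 4.4, 4.4, 4.3 and 4.7 on day 9.5, against 4.3, 4.4, 4.5 and 4.7 on day 6.5, and the 2 days overlapped.

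Genes of cell division rose as a group on day 9.5. Of 76 measured genes of mitosis and the G2/M phase, 75 had a difference above 0. Of the 76, 54 rose (71.1%, against 10.5% of all genes), 0 fell and 22 were not called. Their median difference was 0.45, against −0.03 for all genes. Of the 76 genes, 1 lay in the brightest class, where rises were most frequent. With the array SD as a covariate 35 were called higher, 43 with the acinar mean as a covariate, 62 after quantile normalization, and 32 in every fit. Top2a, which untangles DNA before division, was 7.7, 7.6, 7.9 and 7.7 on day 9.5, against 6.8, 6.5, 7.1 and 6.8 on day 6.5. The lowest day 9.5 array lay above the highest day 6.5 array, and the difference was 0.93 ± 0.16 (adjusted p = 0.00019).

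The other leading mitotic genes kept the same arrays apart. Ccnb2, a B-type cyclin, was 6.0, 6.5, 6.6 and 6.1 on day 9.5, against 5.7, 5.6, 5.3 and 5.0 on day 6.5 (difference 0.90, adjusted p = 4.41e-05). Hmmr, a spindle protein, was 4.4, 5.1, 5.2 and 4.7 on day 9.5, against 3.9, 3.9, 4.2 and 3.8 on day 6.5 (0.90, adjusted p = 2.49e-05). Mki67, the proliferation marker, was 6.8, 7.2, 7.3 and 7.1 on day 9.5, against 6.4, 6.2, 6.6 and 6.4 on day 6.5 (0.70, adjusted p = 0.000705). In all 3 genes, day 9.5 replicate 1 was the lowest of its day, and it was also the array with the least acinar signal. Cks1b, a subunit of cyclin-dependent kinases, rose by 0.82 ± 0.08 (adjusted p = 4.61e-08), and the spindle factor Tpx2 by 0.82 (adjusted p = 0.000185). The mitotic kinases Plk1 (0.62), Bub1 (0.78), Nek2 (0.80) and Cdk1 (0.45) rose as well. Foxm1, the transcription factor of this programme, rose by 0.35 (adjusted p = 0.0121). Cdk1 and Foxm1 were not called with the array SD (adjusted p = 0.228 and 0.124) or the acinar mean (0.239 and 0.0997) as a covariate. Aurkb (0.12) and Birc5 (0.17) were not called.

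Promoters of these mitotic genes were searched for CCAAT, the box bound by NF-Y, and for TTTGAA, the cell cycle homology region, on both strands. The motifs were chosen for their known part in G2/M promoters, and letters of the 2 may lie in the same window without overlap. TTTGAA stood in 45 of the 60 mitotic genes with a window (75%), against 17.3% of all tested genes. CCAAT stood in 43 of them (71.7%), against 41.7% of all. Within the list, TTTGAA stood in 35 of 43 members called higher (81.4%) and in 10 of 17 not called (58.8%). Below are the windows of Ccnb2 (chr9:70421505-70421804, minus strand), Mki67 (chr7:135716330-135716629, minus strand) and Hmmr (chr11:40733388-40733687, minus strand), shown for 3 genes whose arrays did not overlap, with both motifs in capitals.
Ccnb2: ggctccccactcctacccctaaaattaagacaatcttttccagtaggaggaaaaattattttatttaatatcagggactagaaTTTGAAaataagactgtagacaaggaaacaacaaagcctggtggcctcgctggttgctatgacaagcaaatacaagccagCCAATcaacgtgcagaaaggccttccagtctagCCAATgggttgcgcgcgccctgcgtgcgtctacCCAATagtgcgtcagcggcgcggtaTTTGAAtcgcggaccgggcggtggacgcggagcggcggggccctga
Mki67: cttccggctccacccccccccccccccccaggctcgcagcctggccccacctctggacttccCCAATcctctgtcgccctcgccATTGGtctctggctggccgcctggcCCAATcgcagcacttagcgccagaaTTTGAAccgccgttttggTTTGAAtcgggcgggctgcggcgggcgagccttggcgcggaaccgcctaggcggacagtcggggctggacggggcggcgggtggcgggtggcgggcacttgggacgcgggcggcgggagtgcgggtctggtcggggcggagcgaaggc
Hmmr: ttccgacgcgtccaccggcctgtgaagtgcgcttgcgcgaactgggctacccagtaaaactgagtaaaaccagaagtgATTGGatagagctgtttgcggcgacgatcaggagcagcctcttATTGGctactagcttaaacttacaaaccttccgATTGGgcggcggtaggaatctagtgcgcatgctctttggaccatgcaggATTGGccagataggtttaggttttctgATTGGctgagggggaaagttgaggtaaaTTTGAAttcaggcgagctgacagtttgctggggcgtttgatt
Ccnb2 and Mki67 each held CCAAT at 3 places and TTTGAA at 2, and Hmmr held CCAAT at 5 places, all on the other strand (ATTGG), and TTTGAA at 1. The share of all called risers with TTTGAA was 15.2%, near that of all tested genes.

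DNA replication genes also rose. Of 57 measured, 29 rose (50.9%, against 10.5% of all genes), 0 fell and 28 were not called, with a median difference of 0.28. Rrm2, a subunit of ribonucleotide reductase, rose by 0.75 (adjusted p = 3.56e-05), Pold2, a subunit of DNA polymerase delta, by 0.68 and Pcna, its sliding clamp, by 0.68. Of the helicase subunits, Mcm7 rose by 0.35 and was called in every fit. Mcm2 (0.33), Mcm3 (0.40), Mcm5 (0.38) and Mcm6 (0.40) rose too, but were not called with the array SD as a covariate, and Mcm4 (0.20) was not called. The count fell to 11 with the array SD as a covariate, to 17 with the acinar mean as a covariate, and to 17 without day 9.5 replicate 3, 18 without replicate 4 and 18 without day 6.5 replicate 4.

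Of 21 measured D cyclins, CDK inhibitors and partners of menin, 4 rose (19%) and 2 fell, against 10.5% and 6.93% of all genes. In the brightest class, which held 10 of the 21, 23.5% of all genes rose. With the array SD as a covariate 1 of the 21 rose and 1 fell. Cdkn2c, an inhibitor of CDK4 and CDK6, was 6.9, 7.5, 7.6 and 7.4 on day 9.5, against 6.5, 6.6, 6.5 and 6.5 on day 6.5. Its rise of 0.82 ± 0.14 (adjusted p = 0.000107) was of the same size as those of Cks1b and Tpx2, and it was called in every fit. Ccnd1 rose by 0.28 (adjusted p = 0.0465), a call lost with the array SD as a covariate (adjusted p = 0.502). Ccnd2 was 12, 12.1, 12.2 and 12.1 on day 9.5, against 12.2, 12.3, 12.2 and 12.4 on day 6.5, and was not called (−0.17, adjusted p = 0.0863). Men1 (0.20) and Cdkn1b (0.20), genes of a menin pathway that restrains beta-cell division, were not called, and Ezh2 (0.20) was not called. Neither was Bcl6 (0.10), a repressor that competes with STAT5.

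The machinery that moves proteins into and out of the ER rose on day 9.5. Of 40 measured genes of ER translocation and COPII export, 27 rose, 0 fell and 13 were not called, with a median difference of 0.31. Of 37 ER chaperones and genes of ER-associated degradation, 21 rose, 0 fell and 16 were not called, with a median of 0.28. Nearly all lay in the brightest class of genes (39 of the 40 and 36 of the 37), where 23.5% of all genes rose. With the array SD as a covariate the counts were 19 higher and 1 lower for translocation and export, and 13 higher and 0 lower for chaperones. Tmed9, a cargo receptor between ER and Golgi, was 8.4, 8.5, 8.5 and 8.6 on day 9.5, against 7.8, 7.8, 7.3 and 7.4 on day 6.5 (difference 0.93, adjusted p = 6.46e-08). Kdelr3, a receptor that returns ER proteins from the Golgi, was 7.0, 7.1, 7.3 and 7.3 on day 9.5, against 6.3, 6.2, 6.2 and 6.4 on day 6.5 (0.90, adjusted p = 1.09e-06).

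Signal recognition, translocon-associated and oligosaccharide-transfer genes followed: Srprb rose by 0.62, Ssr2, Ssr3 and Ssr4 by 0.45 to 0.47, Rpn1 by 0.53 and Dad1 by 0.47. The coat subunits Sec24a (−0.20), Sec31a (−0.03) and Sec23a (0.03) were not called. Sdf2l1, an ER chaperone cofactor, was 10.5, 10.6, 10.6 and 10.7 on day 9.5, against 9.8, 9.9, 9.5 and 9.7 on day 6.5. It rose by 0.88 ± 0.09 (adjusted p = 3.91e-08), and the spread within each day was under 0.5. Derl3, of ER-associated degradation, was 7.7, 7.6, 7.8 and 7.8 on day 9.5, against 7.0, 6.8, 6.9 and 7.1 on day 6.5 (0.78, adjusted p = 1.37e-06). Hspa5, the central ER chaperone, rose by 0.33 (adjusted p = 0.00227), its partner Dnajb11 by 0.62 and the transcription factor Xbp1 by 0.45 (adjusted p = 0.000303). Hsp90b1 (0.07), Canx (−0.10) and Atf6 (−0.07) were not called. Acinar cells are also rich in these proteins, and the acinar mean was lower on day 9.5. With that mean as a covariate, 20 members of the translocation and export list and 18 of the chaperone list were called higher.

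The ER stress element, CCAAT and CCACG separated by 9 bases, which ATF6 and XBP1 use, was searched on both strands after the CCAAT counts had been seen. It stood in 10 of 32 chaperone windows (31.2%), against 0.134% of all tested genes, in 4 of 19 members called higher (21.1%) and in 6 of 13 not called (46.2%). The windows of Derl3 (chr10:75893148-75893447, plus strand) and Creld2 (chr15:88819396-88819695, plus strand) are shown as members that rose, with the element in capitals. Creld2, an ER protein, rose by 0.45 (adjusted p = 0.00195), a call lost with the array SD as a covariate. 
Derl3: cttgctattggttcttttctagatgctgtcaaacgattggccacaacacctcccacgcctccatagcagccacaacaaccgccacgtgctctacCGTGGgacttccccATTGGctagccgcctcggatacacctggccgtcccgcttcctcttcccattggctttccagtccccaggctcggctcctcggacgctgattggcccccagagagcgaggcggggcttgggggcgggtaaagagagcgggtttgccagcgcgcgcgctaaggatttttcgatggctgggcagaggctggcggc
Creld2: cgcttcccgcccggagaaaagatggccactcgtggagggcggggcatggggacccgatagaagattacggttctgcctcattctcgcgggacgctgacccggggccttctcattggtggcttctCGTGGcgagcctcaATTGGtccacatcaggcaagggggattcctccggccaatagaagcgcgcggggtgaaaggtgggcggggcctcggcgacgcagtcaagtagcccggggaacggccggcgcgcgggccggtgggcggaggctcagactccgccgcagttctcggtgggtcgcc
Both held it on the other strand, as CGTGG before ATTGG.

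Fewer members were called in the PERK-ATF4 arm of the stress response. Of 26 measured genes, 8 rose (30.8%), 1 fell and 17 were not called, with a median difference of 0.22. Among all genes 10.5% rose and 6.93% fell. In the brightest class, which held 12 of the 26, 23.5% of all genes rose. The risers were led by enzymes of serine and one-carbon metabolism, Shmt2 (0.55, adjusted p = 0.000282) and Psat1 (0.50, adjusted p = 0.00237), with Ddit4, an inhibitor of mTORC1, at 0.53. Ddit3, which encodes the pro-apoptotic factor CHOP, was not called (0.05, adjusted p = 0.687), nor was Atf4 itself (0.30, adjusted p = 0.0929). With the array SD as a covariate 4 rose, and without day 9.5 replicate 4 the count was 5.

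Some mitochondrial and lipid genes rose on day 9.5. Of 73 listed subunits of oxidative phosphorylation, 37 rose (50.7%, against 10.5% of all genes), 0 fell and 36 were not called, with a median of 0.28. Cycs, cytochrome c, was 8.5, 9.2, 9.0 and 8.8 on day 9.5, against 8.1, 7.6, 8.1 and 8.0 on day 6.5 (difference 0.93, adjusted p = 7.97e-06). Complex I subunits Ndufb6 (0.78) and Ndufa1 (0.75) and the ATP synthase subunit Atp5pb (0.70) followed. The count was 18 with the array SD as a covariate, and 60 of the 73 lay in the brightest class, where 23.5% of all genes rose. Cox6a2, the muscle-type subunit of cytochrome c oxidase, is not among the 73 and is described with the falls. Mitochondrial ribosomal proteins rose in 32 of 77 cases (41.6%) and fell in 0, and 28 of the 77 lay in the brightest class. Only 5 rose with the array SD as a covariate, and 19 without day 9.5 replicate 3 or without replicate 4. Nucleolar ribosome biogenesis genes rose in 10 of 39 cases (25.6%), and 17 of the 39 lay in the brightest class. They rose in 2 cases with that covariate, in 2 without day 9.5 replicate 3 or without replicate 4, and in 5 or 6 without each day 6.5 array.

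Of 26 cholesterol genes, 12 rose (46.2%), 1 fell and 13 were not called. Among all genes 10.5% rose, and in the brightest class, which held 15 of the 26, 23.5% rose. The risers were mostly synthesis enzymes, led by Ebp (0.72, adjusted p = 7.74e-06), Dhcr7 (0.70, adjusted p = 1.3e-05) and Hmgcs1 (0.57, adjusted p = 0.000149). The 1 that fell was Abca1, which exports cholesterol from the cell: 8.7, 8.5, 8.6 and 8.9 on day 9.5, against 9.2, 9.2, 9.3 and 9.0 on day 6.5. The arrays did not overlap, and the difference was −0.50 ± 0.10 (adjusted p = 0.00152). With the array SD as a covariate 6 rose and 1 fell. Srebf2, the transcription factor of the synthesis enzymes, was not called (0.03). Of 37 genes of branched-chain amino acid breakdown and fatty-acid oxidation, 12 rose (32.4%) and 0 fell, and the brightest class held 27 of the 37. The risers were led by Ivd and Ehhadh above, with Hadhb at 0.53 and Etfa at 0.50. Cpt1a, which admits fatty acids to mitochondria, was not called (−0.28, adjusted p = 0.162), and 6 rose with the array SD as a covariate.

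**Figure D4:**
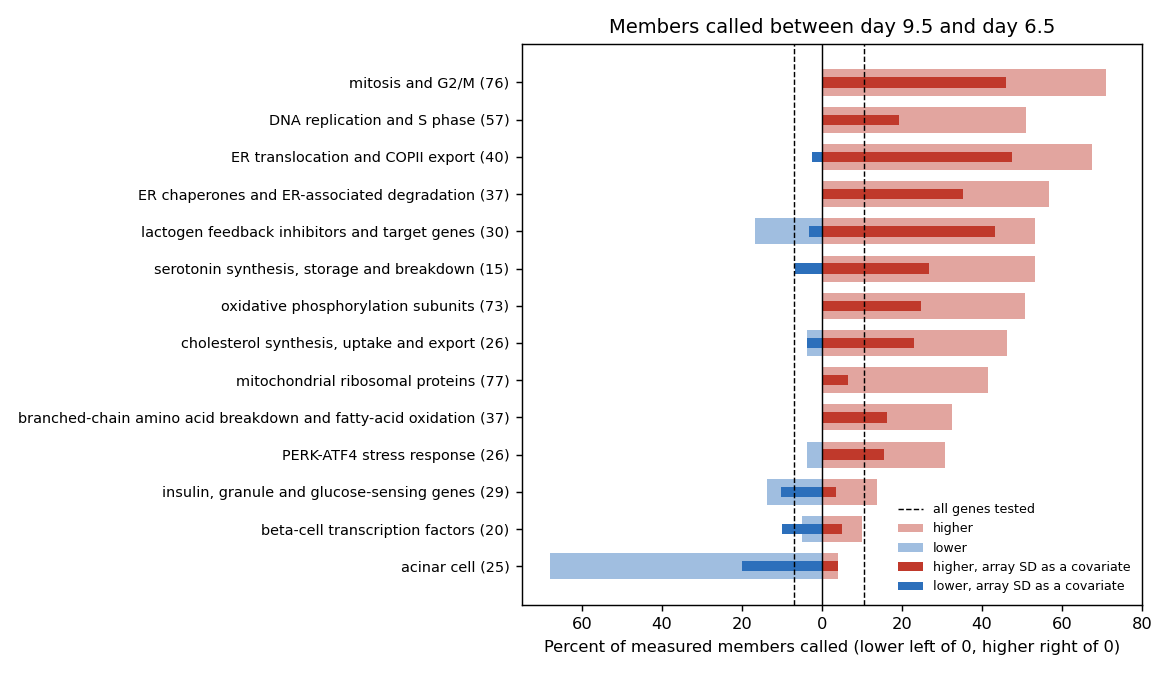
Share of the measured members (number in brackets) of 14 gene lists called higher (right) or lower (left) on day 9.5 than on day 6.5, as wide bars, and with the array SD as a covariate, as narrow bars. Dashed lines mark 10.5% higher and 6.93% lower among all genes. The mitosis list has 54 of 76 members higher, and the acinar list has 17 of 25 lower.

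Most beta-cell identity genes were not called. Of 9 measured beta-cell markers, 0 rose and 2 fell, against 10.5% higher and 6.93% lower among all genes. After quantile normalization 0 rose and 3 fell, and with arrays centred on their medians 2 rose and 1 fell. Ins2 was 12.7 in all 4 day 9.5 arrays, against 12.7, 12.6, 12.6 and 12.6 on day 6.5 (adjusted p = 0.631). Of 20 beta-cell transcription factors, 2 rose (Ovol2 0.65 and Mnx1 0.42), 1 fell (St18 −0.33) and 17 were not called. Mnx1 was not called with the array SD (adjusted p = 0.191) or the acinar mean (0.0547) as a covariate, and St18 was not called after centring (0.0556). In this list 1 rose and 2 fell with the array SD as a covariate. Mafa differed by 0.33 (adjusted p = 0.0603), Pdx1 by 0.12 and Nkx6-1 by −0.17, none of them called. Of 29 insulin, granule and glucose-sensing genes, 4 rose (13.8%) and 4 fell. In the brightest class, which held 27 of the 29, 23.5% of all genes rose and 4.1% fell. In this list 1 rose and 3 fell with the array SD as a covariate, and 2 rose and 4 fell after quantile normalization. Chgb, a granule protein, was 12, 12.2, 12.2 and 12.3 on day 9.5, against 11.5, 11.4, 11.2 and 11.3 on day 6.5. It rose by 0.82 ± 0.08 (adjusted p = 3.87e-08), while its relative Chga differed by 0.00.

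Slc30a8, the zinc transporter of the insulin granule, was 11.9, 12, 12 and 12 on day 9.5, against 12.3, 12.3, 12.4 and 12.3 on day 6.5. The fall of 0.35 (adjusted p = 0.0069) was small beside the rise of Chgb but exceeded the spread of either day, and it was called in every fit. Slc2a2, the glucose transporter GLUT2, fell by 0.25 (adjusted p = 0.0121), a call lost with arrays centred on their medians (adjusted p = 0.143). The calcium channel subunits Cacna1d (−0.38, adjusted p = 0.00651) and Cacna1c (−0.25, adjusted p = 0.0344) also fell, but Cacna1c was not called after centring (adjusted p = 0.19), with the array SD (0.0602) or with the acinar mean (0.106) as a covariate. Ucn3, a marker of mature beta cells, was not called (−0.10, adjusted p = 0.373). Gcg, Sst and Ppy, the hormones of alpha, delta and PP cells, were not called either (0.07, −0.07 and 0.38), and Gcg and Sst stood above 13 on the log2 scale in all 8 arrays. Of the markers of these cells, Hhex, a transcription factor of delta cells, rose by 0.47 (adjusted p = 0.0118) and Pyy, the hormone peptide YY, by 0.40 (adjusted p = 0.0146). Neither was called with the array SD as a covariate (adjusted p = 0.288 for Hhex and 0.115 for Pyy).

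The largest falls were in genes of the exocrine pancreas. Of 25 acinar genes, 17 fell, 1 rose and 7 were not called, with a median of −1.85. Among all genes 6.93% fell and 10.5% rose. Try5, a trypsinogen, was 6.0, 11.2, 9.1 and 9.0 on day 9.5, against 11.3, 11.5, 11.7 and 11.6 on day 6.5 (difference −2.70 ± 0.72, adjusted p = 0.01). Day 9.5 replicate 2 lay almost at the day 6.5 level and replicate 1 far below the rest. The count of falls was 2 without day 9.5 replicate 1, 20 without replicate 2, 8 without replicate 3 and 6 without replicate 4. Without day 6.5 replicates 1 to 4 it was 9, 9, 7 and 8, and with the array SD as a covariate it was 5. The 1 that rose was Bhlha15, a transcription factor of secretory cells (0.85, adjusted p = 0.000448).

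Markers of other cell types are set beside the shares of all genes, 10.5% called higher and 6.93% lower. Of 14 endothelial genes 0 were called, of 22 leukocyte and macrophage genes 2 rose (9.09%), and of 15 stellate cell and fibroblast genes 3 fell. These counts were 0, 1 and 0 with the array SD as a covariate, and after quantile normalization 2 endothelial genes were called lower. In the stellate cell and fibroblast list 13 of the 15 differences were below 0, with a median of −0.175. C1qa, a complement protein of macrophages, was 9.7, 9.8, 9.6 and 9.6 on day 9.5, against 8.8, 8.8, 9.2 and 8.9 on day 6.5 (difference 0.75, adjusted p = 3.87e-05). Its partner chains C1qb and C1qc each differed by 0.15 and were not called, nor were the macrophage markers Adgre1 (0.03) and Csf1r (−0.07). In the interferon list 2 of 30 rose, and 2 with the array SD as a covariate. Cxcl10, an interferon-induced chemokine, was 8.1, 5.1, 6.8 and 5.2 on day 9.5, against 5.6, 5.1, 4.9 and 4.9 on day 6.5, so the days overlapped (adjusted p = 0.0395). It was not called without day 9.5 replicate 1 (difference 0.58, adjusted p = 0.213) or without replicate 3 (1.01, adjusted p = 0.125).

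Large falls outside the acinar list included Rnase1 and 2210010C04Rik, each at −2.39 with the array SD as a covariate. Rnase1 was at −0.10 with the acinar mean as a covariate. The 10 largest falls outside the list that were also called with each of these covariates were named after their values were seen. They held the pancreatic genes Serpini2 and Gm5771, the small RNA genes Mir297b and Mir301b, the olfactory receptor Olfr767, and Cckar, Cox6a2, Tmem229b, D130052B06Rik and Vwa3b. Cox6a2 was 8.3, 8.6, 8.6 and 8.6 on day 9.5, against 9.3, 9.2, 9.0 and 9.5 on day 6.5 (difference −0.73 ± 0.15, adjusted p = 0.00105). Tmem229b was 9.4 in all 4 day 9.5 arrays, against 10.0, 9.9, 10.3 and 10.3 on day 6.5 (−0.73, adjusted p = 0.000114). Cckar, a receptor for cholecystokinin, was 5.6, 5.8, 5.9 and 5.7 on day 9.5, against 6.7, 6.3, 6.4 and 6.5 on day 6.5 (−0.73, adjusted p = 0.000538). In each of these genes the arrays of the 2 days did not overlap.

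The remaining lists are set beside the shares of all genes, 10.5% called higher and 6.93% lower. The share called higher was near that of all genes in the immediate-early and stress list (12.8%) and in the clock list (11.8%). The clock genes Arntl (0.45, adjusted p = 0.00856) and Nr1d1 (−0.53, adjusted p = 0.00987), which encode an activator and a repressor of the same loop, moved in opposite directions, and 2 of 17 clock genes rose and 1 fell. The split was 0 higher and 4 lower with the array SD as a covariate, and after quantile normalization 1 rose and 3 fell. Arntl was not called with the array SD as a covariate (adjusted p = 0.114), nor Nr1d1 without day 9.5 replicate 2 (adjusted p = 0.0568). Of 39 immediate-early and stress genes 5 rose, led by Gadd45a and Jun (0.53), and 2 fell (2 and 1 with the array SD as a covariate), while Fos (−0.23) and Egr1 (0.23) were not called. Rgs2, a regulator of G protein signalling, differed by 0.68 but was not called (adjusted p = 0.0778). Of 23 imprinted genes 0 rose and 4 fell, Zim1 by 0.45 being the largest, and 1 rose and 3 fell with that covariate. Of 29 claudins and BK channel subunits 4 rose and 5 fell. Only Cldn8 and Lrrc55 rose, and 0 fell, with the array SD as a covariate. Among 1190 olfactory and vomeronasal receptor genes, most of them dim on these arrays, 106 fell and 3 rose, and with the array SD as a covariate 9 fell and 6 rose. Of all genes in the dimmest class 6.62% fell and 1.38% rose, and in the next class 12.2% fell and 3.37% rose.

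The interval was then set against the intervals on either side, with which it shares arrays. The difference between day 9.5 and day 6.5 minus that between day 12.5 and day 9.5 was above 0 in 1579 genes (7.92%) and below 0 in 1408 (7.06%), by limma. Of the mitosis list, 54 of 76 were called higher in this contrast, and their median difference between day 12.5 and day 9.5 was −0.30. Top2a averaged 6.80 ± 0.25 on day 6.5, 7.72 ± 0.13 on day 9.5 and 6.90 ± 0.14 on day 12.5 (SD, n = 4 each), and its contrast was 1.75 ± 0.28 (adjusted p = 0.000262). Tph1 averaged 5.22 on day 6.5, 8.57 on day 9.5 and 9.43 on day 12.5, a contrast of 2.5 ± 0.38 (adjusted p = 0.000228). Thus Top2a was lower on day 12.5 than on day 9.5 while Tph1 was higher. Cldn8 (1.88), Cxcl10 (2.02) and Tac1 (1.82), the tachykinin precursor, completed the 5 largest among genes called both in the interval and in this contrast. The most negative were Try5 (−4.32), Prss2, Try10, Try4 and Cuzd1, all of the exocrine pancreas, and none of these 5 was called with the array SD as a covariate. That covariate left 97 genes called in all, among them Cks1b (1.05, adjusted p = 0.00296), Ccnb2 (1.67, adjusted p = 0.012), Hmmr, Kdelr3, Cycs, Sdf2l1, Ivd, Tph1 and Chgb, and 10 of the mitosis list.

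Against the preceding interval, from day 3.5 to day 6.5, the interval was higher in 1092 genes (5.48%) and lower in 784 (3.93%). Tmed9 averaged 8.03 on day 3.5, 7.57 on day 6.5 and 8.50 on day 9.5, and its contrast of 1.38 had an adjusted p of 3.45e-05. Gadd45a averaged 7.23, 7.12 and 8.53 on those days (1.51, adjusted p = 3.45e-05). Mki67 averaged 5.67, 6.40 and 7.10 on days 3.5, 6.5 and 9.5, and its 2 rises did not differ by the test (−0.03, adjusted p = 0.943). Matn2 averaged 7.97, 9.0 and 9.90, with no called difference between the 2 rises (−0.13, adjusted p = 0.732). Of the mitosis list 2 of 76 and of the ER translocation and export list 20 of 40 were called higher in this contrast. The array SD as a covariate gave 1 and 6, and after quantile normalization 2 and 14. The acinar mean of the day 3.5 arrays was 5.29 to 7.46, below the 8.93 to 9.26 of day 6.5, and 554 genes were called in this contrast with that mean as a covariate.

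**Figure D5:**
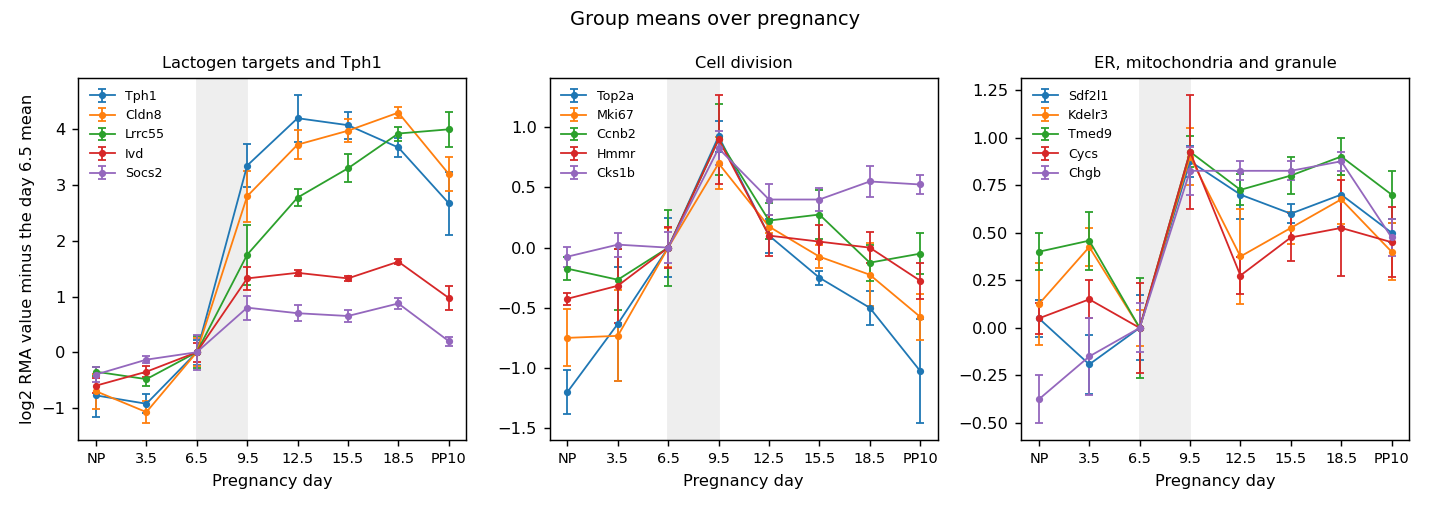
Group means of 15 genes, as log2 values minus the day 6.5 mean, in non-pregnant islets (NP), on 6 pregnancy days and 10 days post partum (PP10), with SD as bars and the interval from day 6.5 to day 9.5 shaded. Top2a and Hmmr peak on day 9.5, Cldn8 and Lrrc55 are higher on later days than on day 9.5, and Chgb stays level from day 9.5 to day 18.5.

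Arrays that the interval does not use were also compared. Between day 12.5 and non-pregnant islets, 813 genes were called higher (4.08%) and 238 lower (1.19%). Of the 2086 genes higher on day 9.5 than on day 6.5, 531 were also higher there, which is 25.5% of the interval's risers and 65.3% of those 813, and 6 were lower. Of the 1382 that fell, 49 were lower there (3.55% of them and 20.6% of the 238) and 0 higher. Ivd was 2.02 higher on day 12.5 than in non-pregnant islets (adjusted p = 4.29e-16), Gadd45a 1.42 and Chgb 1.20. Kdelr3 (0.25, adjusted p = 0.233), Cycs (0.23, adjusted p = 0.426) and Ccnb2 (0.40, adjusted p = 0.0995) were not called there. The mitosis list had 49 of 76 members higher on day 12.5, and the mitochondrial ribosomal proteins 4 of 77.

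In Pdx1-creLate islets, compared with littermate islets, 571 genes were called higher (2.86%) and 742 lower (3.72%). Of the interval's 2086 risers, 231 were higher in Pdx1-creLate islets, 11.1% of the risers and 40.5% of the 571, and 46 were lower. Tph1 averaged 10.65 in Pdx1-creLate islets and 5.25 in littermate islets (difference 5.40, adjusted p = 2.71e-06), and Cldn8 differed by 5.35 and Lrrc55 by 4.80. Gadd45a (0.93), Tph2 (2.75) and Chgb (0.95) were also called higher in Pdx1-creLate islets. Of the mitosis list 1 of 76 rose there, and Top2a averaged 5.40 in Pdx1-creLate islets and 5.45 in littermate islets (−0.05, adjusted p = 0.879). Of the ER translocation and export list 1 of 40 rose there, and of the chaperone list 6 of 37. Among the 15 largest rises of the interval, Car15 (0.20) and D17H6S56E-5 (0.07) were the 2 not called in Pdx1-creLate islets. Of the interval's 1382 falls, 82 were lower in Pdx1-creLate islets (5.93% of the falls and 11.1% of the 742) and 7 higher. Slc30a8 (−0.45), Slc2a2 (−0.57), Cox6a2 (−0.90) and Tmem229b (−0.83) were among those lower in both. A comparison of the size of these differences with those of the interval was not tested.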

How the data were processed

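Affymetrix Mouse Gene 1.0 ST arrays measured the RNA of 39 mouse islet samples. The deposited values are log2 signals made by the authors with RMA in Affymetrix Expression Console, per the submitters' processing notes, and carry 1 decimal (1.7 to 14.5). A genome build is not given in the sources used here. Of 35556 probe sets, 21789 had 1 gene symbol, 1621 several and 12146 none. Each of 19938 genes was represented by its brightest probe set, by the mean of all arrays.

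The model, fitted with limma 3.58.1 (lmFit, eBayes) in R 4.3.3, had a mean per group over the 31 arrays of C57bl6/J islets, with no covariate, and the contrast was day 9.5 minus day 6.5. The Pdx1-creLate comparison used its own 8 arrays. With 200 simulated differences of 0.5 (log2) among the 19938 genes, 79% were recovered and 2.47% of the calls were false. At differences of 1.0, 100% were recovered and 6.1% of the calls were false. The simulated noise was independent between genes, so shifts shared by many genes of an array were not covered. Same-numbered arrays of the 2 days correlated at 0.083, 0.037, 0.045 and 0.039 over genes, so the numbers were not taken to pair samples. The labels call the arrays biological replicates without naming animals. The p-values therefore rest on the spread between arrays within groups, pooled over all groups of the model and not over the 2 days alone. Precision is limited by how few arrays each day has.

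Members and gene lists were chosen with earlier results of these data known. The naming rule took the 15 largest rises and falls with separate arrays, up to 5 called members of each list, a fixed set, and the 5 largest differences each way from the next interval. Further list members were named after their values were seen. Alternatives were other scalings, filters, probe set rules, covariates, weights and array sets, and each array left out. A list of histone genes matched no symbol and was not used.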

Additional observations from a re-analysis of the deposited data

Results flagged for a closer look

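In groups of 4 arrays, single arrays stood apart from the other 3 by Dixon's criterion 18 times among 134 groups of values examined (64 genes and the array measures). Chance flags about 1 in 20 groups, and because the deposited values carry 1 decimal, several of these rest on a step of 0.1.

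The widest gaps were on day 6.5. Myc was 6.4 in replicate 4, against 7.6 in the next array, Cish was 8.2 in replicate 4, against 9.3, and Tac1 was 5.1 in replicate 2, against 4.1. Bcl6 was 6.0 in day 6.5 replicate 4, against 5.4, so it was high in the array in which Myc and Cish were low. Tph1 was 8.0 in day 9.5 replicate 1, against 8.7, and Fgl2 was 7.8 in day 6.5 replicate 1, against 7.5. Pnliprp2 was 8.6 in day 6.5 replicate 3, against 8.3, and the mean of the acinar genes was 9.26 in the same array, against 8.94. Cdkn1b was 9.0 in that array, against 8.8.

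The other arrays lay 0.1 from the other 3 of their day. On day 9.5 these were Ghr at 9.4 and Ucn3 at 10.6 in replicate 2, Sst at 13.5 in replicate 2, Stat5a at 7.2 in replicate 1, Ccnd1 at 10.2 in replicate 3 and Gcg at 13.9 in replicate 4. On day 6.5 they were Stat5a at 7.4 and Ins2 at 12.7 in replicate 1, and Stat5b at 8.2 in replicate 4.

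Probe sets with no gene symbol or with several were left out of the comparisons. Of 13767 such probe sets, 1022 were called by limma when every probe set was tested, and 33 of them changed at least 2-fold, 21 higher and 12 lower on day 9.5 than on day 6.5.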

How the results depend on the processing

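The 15 largest rises were called higher under all 10 alternatives that test the same genes and without each of the 8 arrays. The counts moved more. Called genes numbered 3468, but 1324 with the array SD as a covariate and 2201 with only the groups compared fitted. Genes called higher were 668 and 1343 under these settings, and genes called lower 656 and 858, with 511 lower after centring. Genes called at least 2-fold were 20 with the acinar covariate and 21 with the SD covariate.

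With 1 array left out, called genes ranged from 1924 (without day 9.5 replicate 4; 2070 without replicate 3) to 3852, those higher from 1326 to 2252, those lower from 598 to 1600 (849 without day 6.5 replicate 4), and those at least 2-fold from 27 (without day 9.5 replicate 1; 28 without replicate 4) to 52. For the interval against the next one, the 2987 calls became 1393 after quantile normalization, 97 with the SD covariate, and 795 (without day 9.5 replicate 4; 1087 without replicate 3) to 3687 with 1 array left out. Against the preceding interval, the 1876 calls became 994, 554 with the acinar covariate, 147 with the SD covariate, and 754 to 2454 with 1 array left out. The lowest of these was without day 6.5 replicate 4, with 1177 without day 6.5 replicate 2, 1120 without day 9.5 replicate 4 and 1213 without day 3.5 replicate 2. The Pdx1-creLate count of 1313 became 2484 with all 39 arrays in 1 model. Apart from fewer arrays or more residual arrays, the causes were not tested.

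With the acinar covariate, a mean that holds most of these genes, the differences of 2210010C04Rik (0.033), Ctrl (0.0925), Cel (0.19), Cpa1 (0.12), Cela2a (0.0745), Cela1 (0.0791), Pnliprp2 (0.0261) and Pnliprp1 (0.19) turned positive. With the replicate number as a block, 3476 genes were called, 2098 higher and 1378 lower, and no same-numbered arrays of the 2 days correlated above 0.1.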
